A study of Mus musculus with 16 samples.

Results

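Forkhead genes were taken as every gene in the count table whose symbol is Fox followed by a class letter from a to s and a number, and 44 of 53800 genes met this rule. Their RNA was measured in 16 libraries of polyadenylated RNA from wild-type B6 mouse forelimb buds. The outermost 150 µm of the bud was cut off and treated with cold trypsin, and forceps were used to lift the ectoderm, the surface epithelium, away from the mesoderm beneath it. The 8 groups of 2 libraries are ectoderm and mesoderm, each at E9.5 and on the following 3 days up to E12.5 (E10.5 and E11.5 between them), and no group carried a mutation or treatment. Ectoderm and mesoderm of 1 stage and replicate number came from 1 batch of embryos, and the RNA of replicate 1 was extracted with RNeasy Plus Mini columns and that of replicate 2 with RNeasy Mini columns.

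Forkhead proteins are transcription factors that bind DNA through a shared winged-helix domain and are named by class letters. Classes C, D and F act mainly in mesenchyme, classes I, N and Q include regulators of skin, hair and thymic epithelium, and Foxj1 switches on genes for motile cilia. FoxO proteins raise stress and cell-cycle arrest genes unless AKT kinase, downstream of insulin and growth factor signals, keeps them out of the nucleus. FoxM1 drives genes for mitosis, and FoxP proteins are repressors that bind DNA as dimers.

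Promoter sequence is shown for 5 genes with wide differences between the layers, 3 higher in ectoderm (Foxi2, Foxi3, Foxn1) and 2 higher in mesoderm (Foxc1, Foxd2), so that the stretches upstream of genes with opposite patterns can be read side by side. The bases come from RefSeq (GRCm38.p6), which listed 28 of the 44 genes, and stop before the first transcribed base in both RefSeq and the authors' gene coordinates. Capitals mark GGGCGG or its complement CCGCCC, the GC box bound by Sp proteins, and CCAAT or its complement ATTGG.
Foxi2: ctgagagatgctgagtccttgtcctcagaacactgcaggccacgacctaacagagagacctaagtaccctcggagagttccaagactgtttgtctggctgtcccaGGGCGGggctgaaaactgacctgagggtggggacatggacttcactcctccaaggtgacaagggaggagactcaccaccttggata
Foxi3: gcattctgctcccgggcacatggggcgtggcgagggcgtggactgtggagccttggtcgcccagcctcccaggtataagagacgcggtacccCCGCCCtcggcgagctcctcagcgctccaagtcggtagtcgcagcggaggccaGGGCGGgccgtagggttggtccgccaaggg
Foxn1: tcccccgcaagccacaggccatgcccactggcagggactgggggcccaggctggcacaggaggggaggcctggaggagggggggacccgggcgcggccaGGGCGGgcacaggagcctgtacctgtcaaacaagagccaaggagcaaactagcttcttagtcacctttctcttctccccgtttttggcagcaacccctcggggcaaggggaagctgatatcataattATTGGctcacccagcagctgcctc
Foxc1: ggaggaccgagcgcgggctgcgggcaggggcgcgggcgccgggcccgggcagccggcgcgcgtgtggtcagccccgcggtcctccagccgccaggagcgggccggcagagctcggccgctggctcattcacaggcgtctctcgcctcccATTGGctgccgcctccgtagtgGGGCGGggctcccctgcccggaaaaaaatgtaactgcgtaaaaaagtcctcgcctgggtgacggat
Foxd2: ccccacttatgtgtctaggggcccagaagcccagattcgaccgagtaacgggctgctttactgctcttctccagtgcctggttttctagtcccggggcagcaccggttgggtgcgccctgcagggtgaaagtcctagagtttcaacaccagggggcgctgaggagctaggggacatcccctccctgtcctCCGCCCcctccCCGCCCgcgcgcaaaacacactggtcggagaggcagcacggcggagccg
They lie at chr7:135410117-135410307 (plus strand), chr6:70956356-70956530 (plus), chr11:78386609-78386858 (minus), chr13:31806396-31806632 (plus) and chr4:114908899-114909148 (minus), in the order shown and each written 5′ to 3′ along its gene. A GC box was present once or more in each of the 5 windows, against between 20.2% and 32.7% of 32851 promoters cut to the same lengths. CCAAT was present in Foxn1, where 33.8% of promoters of that length hold it, and in Foxc1, where 32.8% do. The forkhead core TGTTTA or its complement TAAACA was present in 0 of the 5 windows, and between 9.29% and 12.03% of promoters of those lengths hold it. Both groups of genes thus had GC boxes.

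The library sizes ran from 10005867 to 30438214 counts. The layers carried their own markers: of 18 genes of surface epithelium, 18 were higher in ectoderm at each stage, and of 17 endothelial genes, 17 were lower in ectoderm at each stage. Limb mesenchyme genes were in ectoderm at a median of 35.3% of their level in batch-matched mesoderm in ectoderm E11.5 replicate 1, and at between 4.46% and 17.9% in the other 7 ectoderm libraries. Erythroid genes were at 27.0% in ectoderm E9.5 replicate 2 and at between 0.485% and 5.17% in the others. Surface epithelium genes summed to between 3298 and 8592 counts scaled to a library of 1000000 (CPM) in ectoderm and between 31.1 and 136 CPM in mesoderm. Macrophage genes summed to 39.5 CPM in ectoderm E11.5 replicate 1 and to between 1.90 and 6.94 CPM in the other 7 ectoderm libraries.

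Of the 44 forkhead genes, 24 had enough counts to be tested and 20 did not, and each of these 20 averaged under 1 CPM in every group. Among the 20 were Foxa1, Foxa2, Foxa3, Foxb1, Foxb2, Foxd3, Foxd4, Foxe1, Foxe3, Foxf1, Foxf2, Foxi1, Foxl1, Foxl2, Foxn4, Foxp3, Foxr1, Foxr2 and Foxs1. The highest group mean among them was 0.588 CPM, for Foxl2 in E10.5 ectoderm, and Foxi1 had 0 counts in all 16 libraries. Foxf1, Foxf2 and Foxl1, mesenchymal genes that answer to Hedgehog signals in the gut, were among these low genes, with 53, 30 and 22 counts in all libraries together. Foxf1 had 9 counts in ectoderm and 44 in mesoderm (ratio 0.252 in CPM, 95% counting interval 0.108 to 0.524), and both ectoderm libraries lay below both mesoderm libraries at each stage. Foxl1 had 3 counts in ectoderm and 19 in mesoderm (ratio 0.195, counting interval 0.0369 to 0.662). Of 8 Hedgehog response genes, all tested, 0 were higher in ectoderm over the mean of the stages and 5 were lower, against 24.3% and 21.4% of all genes tested (median log2 −0.87, against 0.01). With embryo batch as blocking factor 2 were higher and 6 lower, and the share of all genes with that block is not given here.

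Per unit of transcript length, the most abundant forkhead RNAs were the same few in both layers. By the authors' FPKM, Foxp4 led in ectoderm with a mean of 42.2 over the 8 libraries (33.6 to 50.1) and Foxo4 followed with 37.3 (26.7 to 47.1). Foxm1 was next with 31.0 FPKM in ectoderm (27.5 to 37.0) and Foxk2 with 23.6 (20.6 to 26.9). Neighbours in this order overlapped in range, except Foxm1 and Foxk2. In mesoderm Foxm1 led with 43.5 FPKM (30.3 to 52.7), followed by Foxk2 with 31.4 (26.4 to 36.1), Foxo4 with 30.1 (11.9 to 45.5) and Foxp4 with 27.1 (9.996 to 64.1), and these ranges overlapped too. Genes with wide differences between the layers stood far below them: Foxi2 averaged 2.80 FPKM in ectoderm and 0.0214 FPKM in mesoderm, and Foxc1 averaged 0.0665 FPKM in ectoderm and 0.645 FPKM in mesoderm.

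**Figure D1:**
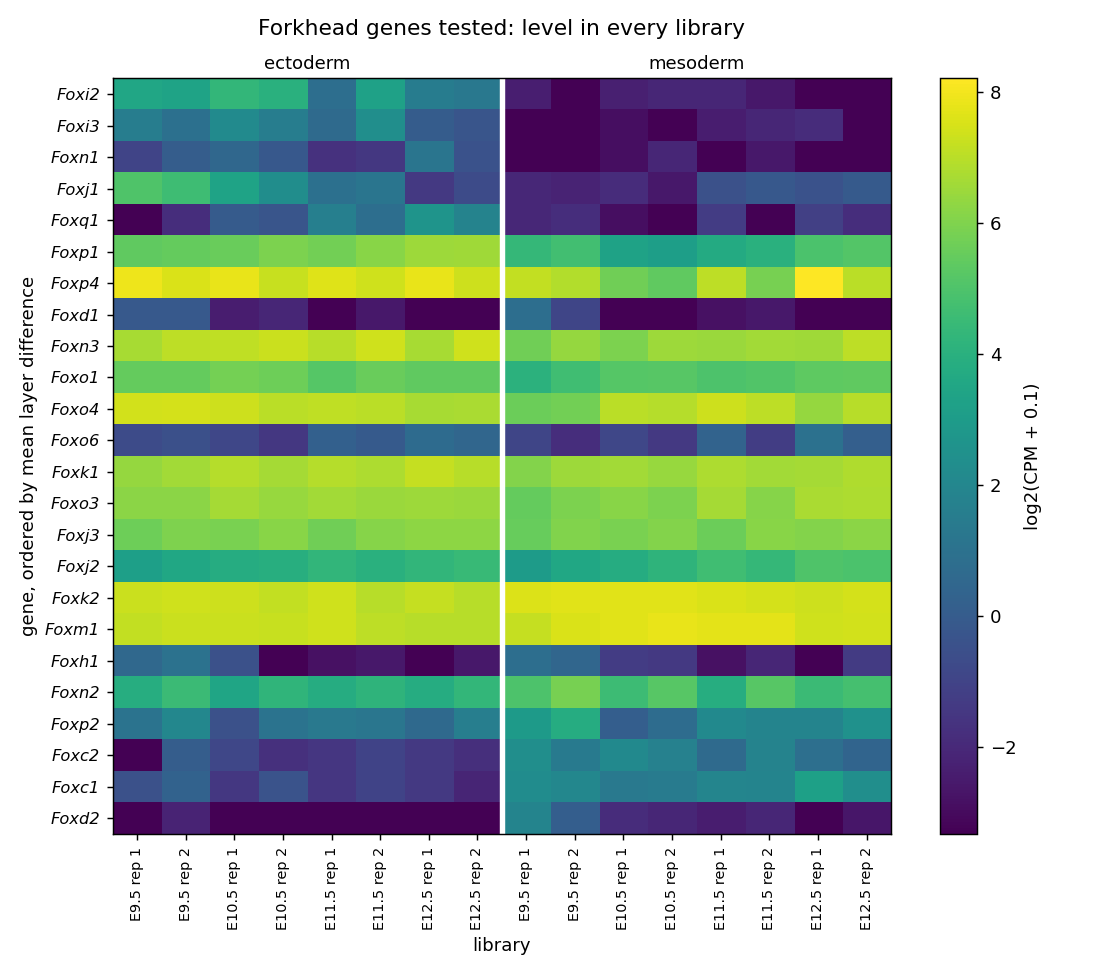
Level of the 24 tested forkhead genes in every library, as log2(CPM + 0.1), with ectoderm libraries on the left, mesoderm libraries on the right, and genes ordered by their fitted mean log2 difference between the layers. Foxi2, Foxi3 and Foxn1 at the top are dark in mesoderm, Foxc2, Foxc1 and Foxd2 at the bottom are dark in ectoderm, and the rows between, such as Foxk2 and Foxm1, are bright in both.

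Averaged over the 4 stages, 11 forkhead genes were higher in ectoderm and 7 were lower by edgeR's quasi-likelihood test (adjusted p under 0.05), against 24.3% and 21.4% of all 15501 genes tested. The 11 were Foxi2, Foxi3, Foxj1, Foxk1, Foxn1, Foxn3, Foxo1, Foxo4, Foxp1, Foxp4 and Foxq1, and the 7 were Foxc1, Foxc2, Foxd2, Foxk2, Foxm1, Foxn2 and Foxp2. All 18 calls together compare with 45.7% of all genes. Of the 18, 12 had 1 direction in all 8 embryo batches, the exceptions being Foxd2, Foxj1, Foxo4, Foxp2, Foxp4 and Foxq1. These batches gave the calls, so their agreement is a description and no separate support. A gene expressed in 1 layer or at 1 stage alone enters the tested set through it. Foxi2, Foxi3, Foxn1 and Foxq1 entered through ectoderm and Foxc2 and Foxd2 through mesoderm, so the count filter favoured their directions. The counts of calls therefore describe the 24 genes and not the 44. The median log2 difference was 0.26 over the 24 forkhead genes and 0.01 over all genes tested. In bulk RNA of this kind, fewer cells of a type and less RNA per cell cannot be told apart.

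By stage, 7 forkhead genes were higher in ectoderm and 4 lower at E9.5, then 8 and 4 at E10.5, next 5 and 3 at E11.5 and last 5 and 1 at E12.5. The corresponding shares of all genes were 13.1% and 8.29% at E9.5, then 16.2% and 10.2% at E10.5, next 12.9% and 7.69% at E11.5, then 13.3% and 13.2% at E12.5. In both directions together the shares were 21.4%, 26.4%, 20.6% and 26.4% from E9.5 on. Every gene called at a single stage moved the same way in both embryo batches of that stage. Those batches gave the calls, so this agreement is no separate support. With embryo batch as blocking factor in the fit, the number lower at E11.5 was 6 and at E12.5 was 7. That block also raised the calls among all 15501 genes, in both directions, to 6197 at E11.5 (3196 without) and 7080 at E12.5 (4099 without). Without ectoderm E11.5 replicate 1, the ectoderm library with the most limb mesenchyme RNA, the forkhead genes Foxj1 (log2 1.52), Foxq1 (3.22) and Foxc2 (−2.665) lost their E11.5 calls. At E9.5, 5 were higher and 2 lower without ectoderm replicate 2, the library with erythroid RNA. The number lower at E9.5 was 0 without ectoderm replicate 1 and 2 without mesoderm replicate 1 of that stage. Without mesoderm E11.5 replicate 2, 3 were higher at E11.5, and without either mesoderm library of E10.5, 5 were higher at E10.5. The number lower at E10.5 was 1 or 2 without any 1 library of that stage, and that at E11.5 was 1 without ectoderm E10.5 replicate 1, ectoderm E11.5 replicate 2, either ectoderm library of E12.5 or mesoderm E11.5 replicate 2. The number lower at E12.5 was 2 without either ectoderm library of E9.5 and 3 without either mesoderm library of E9.5.

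**Figure D2:**
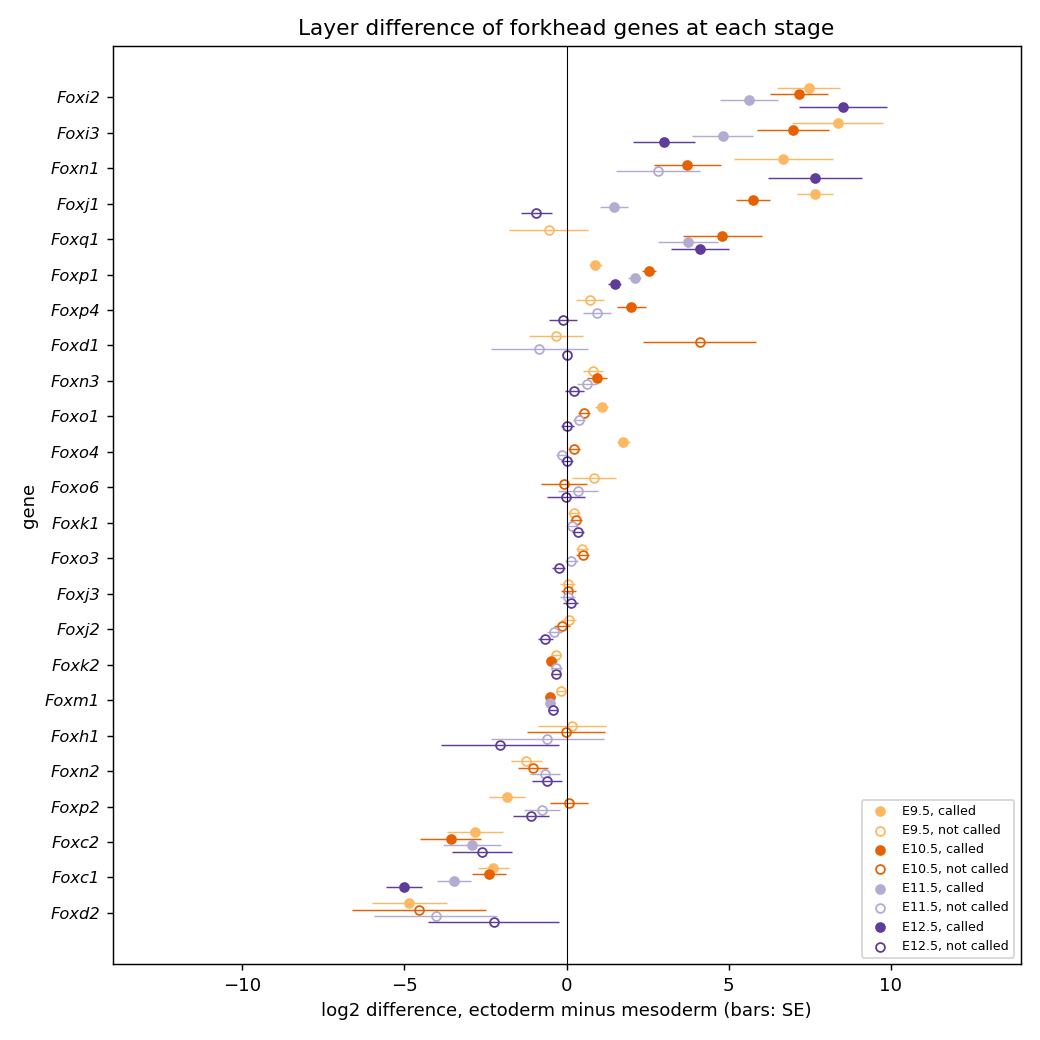
Fitted log2 difference, ectoderm minus mesoderm, of each tested forkhead gene at each stage, with bars of 1 SE from edgeR and filled points for adjusted p under 0.05. Foxi2 and Foxi3 lie right of 0 at all 4 stages, Foxc1 lies left of it at all 4, and Foxj1 moves leftward from 7.67 at E9.5 to −0.93 at E12.5.

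Foxi2 and Foxi3 were higher in ectoderm at every stage and scarce in mesoderm; of the other forkhead genes, Foxp1 too was called higher at all 4 stages. In mice Foxi3 is needed for teeth, hair and the ear, and Foxi2 is known from the surface ectoderm of the head. In ectoderm Foxi2 had 11.1 and 10.1 CPM at E9.5, then 19.5 and 15.95 at E10.5, next 1.70 and 9.53 at E11.5 and last 2.74 and 2.37 at E12.5. In mesoderm Foxi2 had 0.0955 and 0 CPM at E9.5, then 0.104 and 0.136 at E10.5, next 0.133 and 0.0666 at E11.5 and last 0 and 0 at E12.5. The lowest ectoderm library, E11.5 replicate 1, was still above the highest mesoderm library, so the layers did not overlap over all 16 libraries.

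Over all stages Foxi2 had 1011 counts in ectoderm and 11 in mesoderm, a ratio of 113 in CPM (95% counting interval 63.1 to 228; edgeR adjusted p = 8.79e-07). At E12.5, where mesoderm had 0 counts, Foxi2 was at least 34.0-fold higher in ectoderm, taking 3 counts over both mesoderm libraries as the floor. Within ectoderm, Foxi2 averaged 2.56 ± 0.262 CPM at E12.5 and 10.6 ± 0.709 CPM at E9.5 (SD, n = 2 each). This stage difference missed the threshold (log2 −2.04, SE 0.66, adjusted p = 0.0611), but passed it with the replicate number as a block (adjusted p = 0.0171).

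Foxi3, which like the other genes below 10 CPM is given in every library because of values already seen, had 2.85 and 1.81 CPM in ectoderm at E9.5, then 4.52 and 2.87 at E10.5, next 1.49 and 5.03 at E11.5 and last 0.915 and 0.725 at E12.5. In mesoderm Foxi3 had 0 and 0 CPM at E9.5, then 0.0345 and 0 at E10.5, next 0.0887 and 0.133 at E11.5 and last 0.174 and 0 at E12.5. Each ectoderm library exceeded each mesoderm library. The ratio over all stages was 40.2 (counting interval 20.9 to 88.7; 293 and 9 counts; edgeR adjusted p = 9.35e-06). Foxi2 and Foxi3 were thus both lowest in E12.5 ectoderm by group mean, and both had their highest ectoderm mean at E10.5. The E12.5 call for Foxi3 was lost without 1 library in 9 of 16 cases (adjusted p up to 0.153, without mesoderm E12.5 replicate 2) and the E11.5 call without mesoderm E11.5 replicate 1 (0.0521).

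Foxn1, the gene mutated in nude mice and a regulator of thymic epithelium and of hair keratinocytes, was a scarce ectodermal RNA. It had 0.422 and 0.965 CPM in ectoderm at E9.5, then 1.33 and 0.801 at E10.5, next 0.213 and 0.265 at E11.5 and last 2.15 and 0.659 at E12.5. In mesoderm Foxn1 had 0 CPM in both libraries at E9.5 and at E12.5, 0.0345 and 0.136 at E10.5, and 0 and 0.0666 at E11.5. The layers did not overlap, at 113 counts in ectoderm and 4 in mesoderm (ratio 34.8, counting interval 13.2 to 130; edgeR adjusted p = 0.000145). Foxn1 entered the tested set through ectoderm, where it was high, so the count filter favoured a difference in this direction. At E11.5, with 9 and 1 counts, the difference did not pass (adjusted p = 0.18). The E10.5 call was lost without any of its 4 libraries (adjusted p up to 0.198) and the E9.5 call without ectoderm replicate 2 (0.0768) or either mesoderm replicate (0.0738 and 0.0538).

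Foxq1, which acts in the hair shaft and is mutated in satin mice, appeared in ectoderm with time. In ectoderm it had 0 and 0.181 CPM at E9.5, then 0.887 and 0.734 at E10.5, next 3.07 and 1.72 at E11.5 and last 6.18 and 3.495 at E12.5. In mesoderm Foxq1 had 0.143 and 0.184 CPM at E9.5, then 0.0345 and 0 at E10.5, next 0.310 and 0 at E11.5 and last 0.349 and 0.183 at E12.5. The layers overlapped at E9.5, with 3 counts in ectoderm and 6 in mesoderm, and not at the later 3 stages.

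In ectoderm Foxq1 rose to 188 counts at E12.5, against 3 at E9.5, a ratio of 44.1 in CPM (counting interval 14.9 to 216; fitted log2 5.39, SE 1.03, edgeR adjusted p = 0.00461). Foxq1 entered the tested set through ectoderm libraries later than E9.5, so the count filter favoured this rise. In mesoderm the ratio was 1.73 (counting interval 0.588 to 5.71; adjusted p = 0.657). The difference between these 2 changes did not pass in the fit without a block (log2 4.67, SE 1.501, adjusted p = 0.0862), and passed with embryo batch as blocking factor (log2 4.84, adjusted p = 0.0241) and with DESeq2 (adjusted p = 0.0204). Foxq1 overlaps A530084C06Rik, on the opposite strand, which had 40 counts in all libraries together, and no source used here says whether counting used strand. The call over the mean of the stages was lost without ectoderm E9.5 replicate 2 (log2 2.02), where that group kept only a library with 0 counts. A test of the mean cannot judge the layer difference with such a group. The E11.5 call was lost without ectoderm E11.5 replicate 1 (log2 3.22) or mesoderm E11.5 replicate 2 (2.93). That at E10.5 was lost without mesoderm E10.5 replicate 1 (6.80) or replicate 2 (4.29).

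Foxj1 was a scarce RNA of both layers at E12.5 and an ectodermal gene at E9.5. In ectoderm it had 32.4 and 24.9 CPM at E9.5, then 10.2 and 4.94 at E10.5, next 1.79 and 2.12 at E11.5 and last 0.274 and 0.528 at E12.5. In mesoderm Foxj1 had 0.143 and 0.123 CPM at E9.5, then 0.173 and 0.0682 at E10.5, next 0.621 and 0.799 at E11.5 and last 0.654 and 0.854 at E12.5. The groups did not overlap at any stage: ectoderm was above mesoderm at E9.5, E10.5 and E11.5, and below it at E12.5.

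The ratio of Foxj1 between the layers was 206 at E9.5 (counting interval 87.7 to 635; 720 and 5 counts), then 52.4 at E10.5 (23.6 to 144), next 2.77 at E11.5 (1.75 to 4.52) and last 0.513 at E12.5 (0.251 to 1.003). The E9.5, E10.5 and E11.5 differences passed (edgeR adjusted p = 2.81e-06, 1.25e-05 and 0.0336) and that at E12.5 did not (log2 −0.93, SE 0.49, adjusted p = 0.211). In ectoderm Foxj1 fell to 0.401 ± 0.179 CPM at E12.5, against 28.7 ± 5.28 CPM at E9.5 (SD, n = 2 each; log2 −6.18, SE 0.49, adjusted p = 2.59e-05). In mesoderm Foxj1 rose to 0.754 ± 0.142 CPM at E12.5, against 0.133 ± 0.0144 CPM at E9.5 (log2 2.42, SE 0.56, adjusted p = 0.00794). The change in ectoderm minus that in mesoderm was −8.60 (SE 0.72, edgeR adjusted p = 8.25e-05). The E11.5 call was lost without 1 library in 6 of 16 cases (adjusted p up to 0.195, without mesoderm E11.5 replicate 1), and the rise in mesoderm without mesoderm E9.5 replicate 1 (0.0521).

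A list of 22 motile cilium genes, chosen after the Foxj1 values were seen and so given as a description, did not share this course in its summed level, of which 1 gene was a large part. Of the 22, 9 had enough counts to be tested, and their median log2 difference, ectoderm minus mesoderm, did move in the direction of Foxj1, at 0.67 at E9.5, then 0.0009 at E10.5, next −0.78 at E11.5 and last −0.73 at E12.5 (over all genes between −0.01 and 0.04). Their median change by E12.5 was 1.28 in mesoderm (0.02 over all genes), where Foxj1 rose, and 0.22 in ectoderm (0.003), where Foxj1 fell. All 22 together summed to between 17.6 and 21.9 in ectoderm libraries and between 19.2 and 31.4 in mesoderm libraries. Ccdc40, which takes part in assembling axonemal dynein arms, made up much of this sum with 11.9 and 9.53 CPM in E9.5 ectoderm and 12.6 and 14.8 CPM in E9.5 mesoderm. The outer dynein arm gene Dnah5 had 0 and 0.0603 CPM in E9.5 ectoderm, where Foxj1 was highest, and Tekt4 had 0 CPM in all 16 libraries. Rsph4a, a radial spoke gene, had 1.1605 and 0.362 CPM in E9.5 ectoderm and at most 0.132 CPM in any later ectoderm library.

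**Figure D3:**
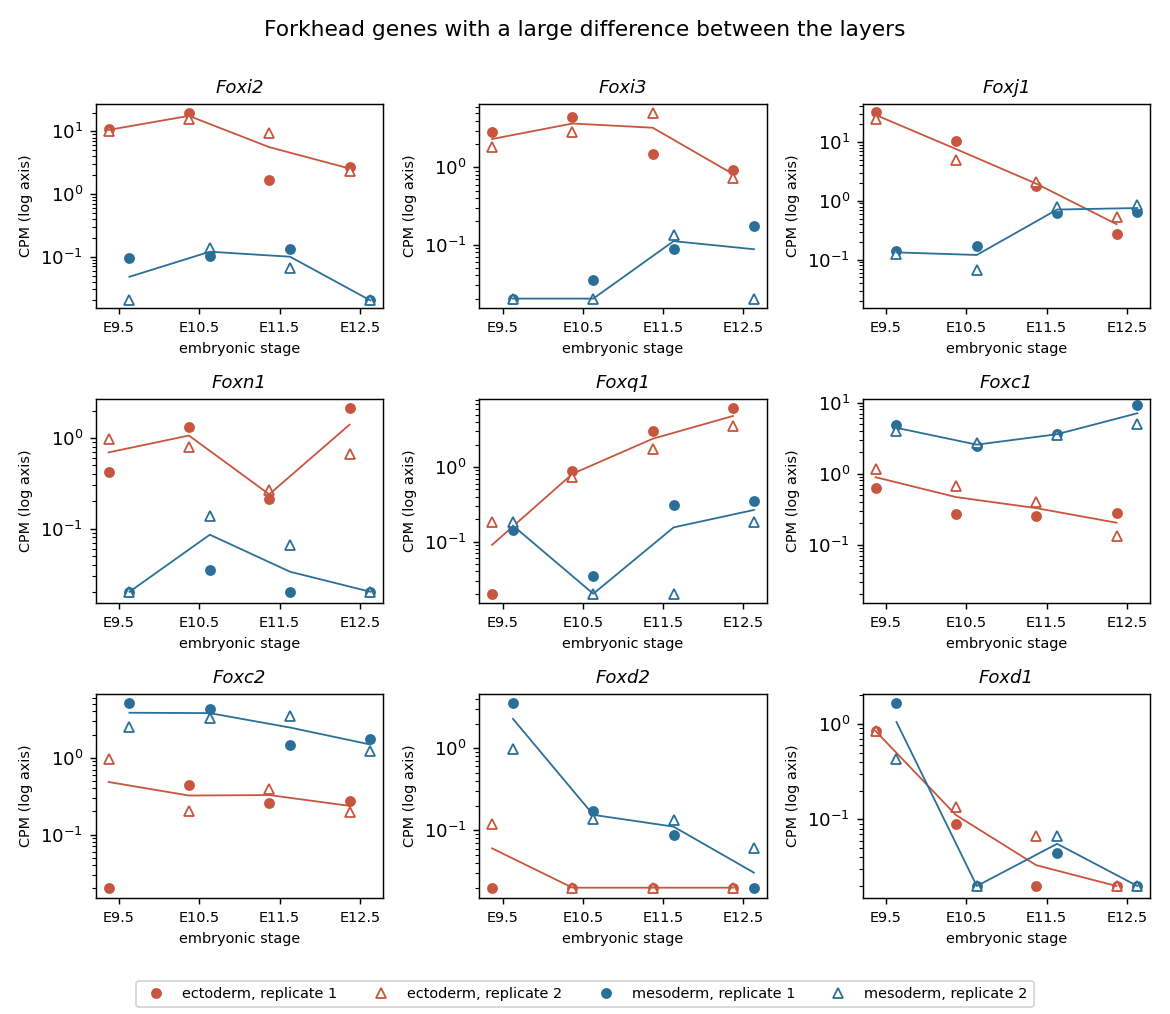
CPM on log axes of 9 forkhead genes by stage, with ectoderm in red, mesoderm in blue, circles for replicate 1, triangles for replicate 2 and lines through the group means; points at the bottom edge of a panel stand for no or almost no counts. The lines of the layers cross in Foxj1 between E11.5 and E12.5 and in Foxq1 after E9.5, Foxi2 and Foxi3 stay apart, and Foxd1 and Foxd2 reach the bottom after E9.5.

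The FoxP genes split between the layers. Foxp1, a repressor with roles in B cells, heart and motor neurons, was an ectodermal gene with a moderate mesodermal level. In ectoderm Foxp1 had 41.8 and 44.8 CPM at E9.5, then 47.4 and 61.1 at E10.5, next 53.1 and 71.0 at E11.5 and last 90.8 and 95.1 at E12.5. In mesoderm Foxp1 had 20.6 and 26.1 CPM at E9.5, then 9.83 and 8.80 at E10.5, next 12.99 and 15.9 at E11.5 and last 31.0 and 35.2 at E12.5. The lowest ectoderm library was above the highest mesoderm library, and in mesoderm the lowest level was at E10.5.

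The log2 difference between the layers in Foxp1 was 0.89 at E9.5 (SE 0.20), then 2.54 at E10.5 (0.21), next 2.10 at E11.5 (0.21) and last 1.49 at E12.5 (0.20), and all 4 passed (edgeR adjusted p = 0.00807, 6.84e-06, 2.99e-05 and 0.000221). In ectoderm Foxp1 rose to 92.9 ± 3.06 CPM at E12.5, against 43.3 ± 2.11 CPM at E9.5 (SD, n = 2 each; log2 1.10, SE 0.20, adjusted p = 0.0035). The mesodermal change did not pass without a block (log2 0.50, SE 0.20, adjusted p = 0.0824) and passed with the replicate number as a block (adjusted p = 0.00612). With embryo batch as blocking factor, the ectodermal change exceeded the mesodermal one (log2 0.60, adjusted p = 0.0372), which it did not without a block (adjusted p = 0.263). The E9.5 call was lost without ectoderm E9.5 replicate 2 (0.0537) or mesoderm E9.5 replicate 1 (0.0805).

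Foxp4, a partner of Foxp1 and Foxp2 in dimers, was abundant in both layers and dipped in mesoderm at E10.5. In ectoderm it had 239.9 and 185 CPM at E9.5, then 223 and 149.7 at E10.5, next 197 and 165 at E11.5 and last 229 and 159.7 at E12.5. In mesoderm Foxp4 had 142 and 117 CPM at E9.5, then 51.8 and 41.9 at E10.5, next 132 and 57.3 at E11.5 and last 295 and 127 at E12.5. Replicate 1 was the higher of the pair in all 8 groups, and the layers overlapped at E12.5 only. The difference passed at E10.5 (log2 1.99, SE 0.44, edgeR adjusted p = 0.00575) and, with embryo batch as blocking factor, also at E9.5 (log2 0.71, adjusted p = 0.0173) and E11.5 (log2 1.04, adjusted p = 0.00256). The E10.5 call was lost without mesoderm E10.5 replicate 2 (adjusted p = 0.054).

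Foxp2, known for its part in speech and in lung and brain development, went the other way at a low level. In ectoderm it had 2.004 and 3.98 CPM at E9.5, then 0.621 and 2.002 at E10.5, next 2.43 and 2.18 at E11.5 and last 1.42 and 2.90 at E12.5. In mesoderm Foxp2 had 7.69 and 14.1 CPM at E9.5, then 1.001 and 1.57 at E10.5, next 4.30 and 3.53 at E11.5 and last 3.62 and 5.61 at E12.5. Ectoderm was below mesoderm without overlap at E9.5, E11.5 and E12.5, and the groups overlapped at E10.5. The E9.5 difference passed (log2 −1.84, SE 0.55, edgeR adjusted p = 0.0346), and that at E12.5 passed only with a block (log2 −1.14, adjusted p = 0.0065 with the embryo batch, against 0.189 without a block). Foxp2 and Foxp4 thus both had their lowest mesoderm mean at E10.5, as did Foxp1. The E9.5 call of Foxp2 was lost without either ectoderm replicate (adjusted p = 0.225 and 0.0586) or mesoderm replicate 2 (0.2), and that over the mean of the stages without the last of these (0.0517).

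**Figure D4:**
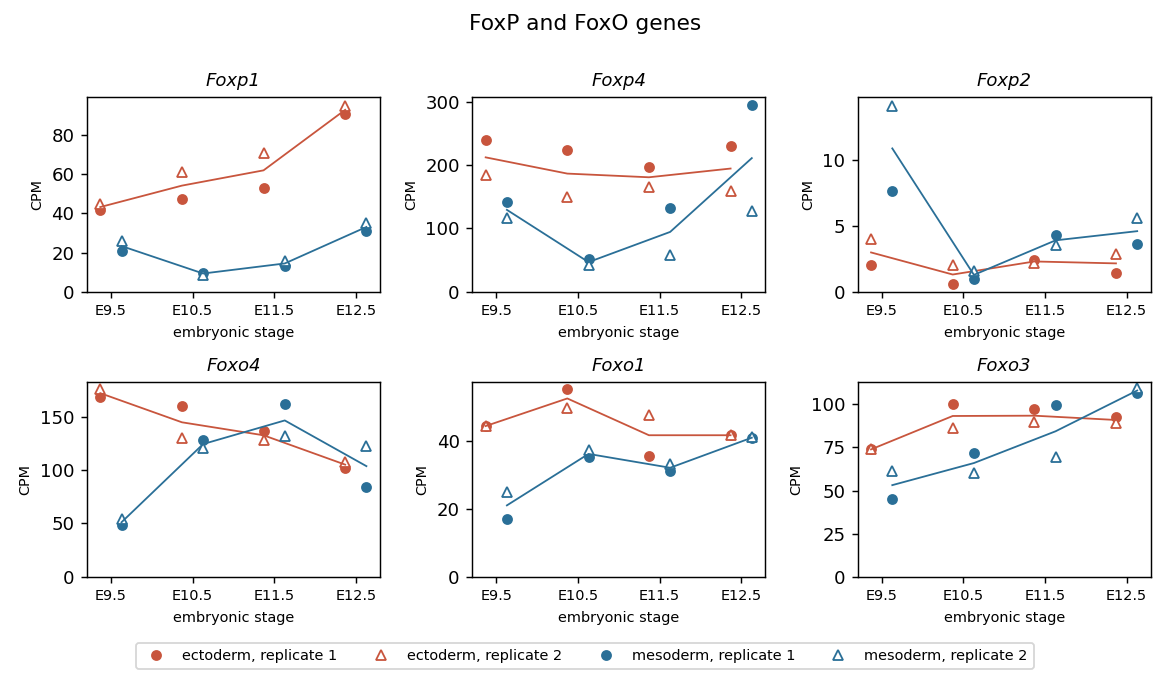
CPM on linear axes from 0 of 3 FoxP and 3 FoxO genes by stage, with ectoderm in red, mesoderm in blue, circles for replicate 1, triangles for replicate 2 and lines through the group means. Foxp1 is higher in ectoderm throughout, and Foxo4, Foxo1 and Foxo3 have their lowest mesoderm means at E9.5.

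Foxc1 and Foxc2, which act in the mesenchyme of the eye, skeleton and kidney and in blood and lymphatic vessels, were genes of the mesoderm. In ectoderm Foxc1 had 0.633 and 1.15 CPM at E9.5, then 0.266 and 0.667 at E10.5, next 0.256 and 0.397 at E11.5 and last 0.274 and 0.132 at E12.5. In mesoderm it had 4.82 and 3.997 CPM at E9.5, then 2.45 and 2.66 at E10.5, next 3.64 and 3.53 at E11.5 and last 9.15 and 5.001 at E12.5. The highest ectoderm library was below the lowest mesoderm library. Foxc1 was lower in ectoderm at all 4 stages (log2 −2.26, −2.39, −3.46 and −5.03 from E9.5 to E12.5, SE 0.48 to 0.55, edgeR adjusted p = 0.00544, 0.00463, 0.000602 and 4.92e-05).

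Foxc1 in ectoderm was 0.0291 of its mesoderm level at E12.5 (counting interval 0.0125 to 0.0581) and 0.215 at E9.5 (0.135 to 0.329). Limb mesenchyme genes stood in ectoderm at medians of 4.46% and 5.19% of mesoderm in the E12.5 batches and at 17.1% and 17.9% in the E9.5 batches, and their part in the Foxc1 values was not tested. Ectodermal Foxc1 fell by 2.08 on the log2 scale at E12.5 relative to E9.5 (SE 0.57, edgeR adjusted p = 0.0291), while its mesodermal change did not pass (0.68, SE 0.43, adjusted p = 0.27). The ectodermal change minus the mesodermal one was −2.76 (SE 0.71, adjusted p = 0.0374). Without ectoderm E9.5 replicate 2 the fall had an adjusted p of 0.259 and the difference of changes one of 0.197. The fall was also lost without ectoderm E12.5 replicate 1 or 2, the difference of changes without 1 library in 10 of 16 cases, and the E9.5 call without ectoderm E9.5 replicate 1 (0.0598).

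In ectoderm Foxc2 had 0 and 0.965 CPM at E9.5, then 0.443 and 0.200 at E10.5, next 0.256 and 0.397 at E11.5 and last 0.274 and 0.198 at E12.5. In mesoderm it had 5.16 and 2.52 CPM at E9.5, then 4.31 and 3.27 at E10.5, next 1.46 and 3.46 at E11.5 and last 1.74 and 1.22 at E12.5. The layers did not overlap, and the mean log2 difference was −2.98 (SE 0.45, edgeR adjusted p = 0.000207). Foxc1 had its highest mesoderm mean at E12.5 and Foxc2 its lowest there. The single-stage calls of Foxc2 were lost without any of several libraries, with adjusted p up to 0.203 at E9.5 (without mesoderm replicate 1), then 0.119 at E10.5 (leaving out ectoderm replicate 2) and 0.215 at E11.5 (leaving out mesoderm replicate 2), and the E12.5 difference passed with embryo batch as blocking factor (adjusted p = 0.0236) but not without (0.0611).

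Endothelial genes moved with the same contrast: 17 of 17 were lower in ectoderm at each stage, with a summed level of 7.54 to 45.7 CPM in ectoderm libraries and 501 to 956 CPM in mesoderm libraries, with at most 2 of the 17 at 0 in any ectoderm library and 0 of the 17 at 0 in any mesoderm library. Their part in the mesodermal levels of Foxc1 and Foxc2 was not tested. Foxc1 lies on chromosome 13 with Foxq1 and Foxf2 (Foxq1 to Foxf2, 64.8 kb; Foxf2 to Foxc1, 175 kb), and Foxc2 on chromosome 8 between Foxf1 and Foxl1 (28.03 kb and 9.04 kb away, mm10). Within the first cluster Foxc1 was lower and Foxq1 higher in ectoderm, and Foxf2 had 7 counts in ectoderm and 23 in mesoderm.

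The class D genes Foxd1 and Foxd2, the first a marker of kidney stroma, had most of their counts at E9.5. Both entered the tested set through that stage. In ectoderm Foxd2 had 0 and 0.121 CPM at E9.5 and 0 counts at every later stage. In mesoderm it had 3.58 and 0.984 CPM at E9.5, then 0.173 and 0.136 at E10.5, next 0.0887 and 0.133 at E11.5 and last 0 and 0.0610 at E12.5. The replicates differed several-fold at E9.5, and both were above every other library. In mesoderm Foxd2 fell to 1 count at E12.5, against 91 at E9.5 (ratio 0.0104, counting interval 0.00026 to 0.0594; edgeR adjusted p = 0.00718). At E9.5 ectoderm had 2 counts and mesoderm 91 (ratio 0.0314, counting interval 0.00374 to 0.117; edgeR adjusted p = 0.0181), a call lost without either ectoderm replicate (0.109 and 0.0615) or mesoderm replicate 1 (0.126). The call over the mean of the stages was lost without mesoderm E12.5 replicate 2 (log2 −3.37), where that group kept only a library with 0 counts. A test of the mean cannot judge the layer difference with such a group. The fall in mesoderm was lost without mesoderm E12.5 replicate 1 (log2 −5.08).

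Foxd2os, a noncoding RNA beside Foxd2, had a like distribution. It had at most 0.0667 CPM in any ectoderm library, and in mesoderm it had 2.24 and 1.35 CPM at E9.5 and between 0.133 and 0.666 CPM in the later libraries. It was lower in ectoderm over the mean of the stages (log2 −4.94, edgeR adjusted p = 0.000298), and its fall in mesoderm did not pass (log2 −2.43, adjusted p = 0.0614). Fendrr, the noncoding RNA beside Foxf1, was near 0 CPM in all libraries.

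Foxd1 had 0 counts at E12.5 and 22 at E9.5 in ectoderm, and 0 at E12.5 and 42 at E9.5 in mesoderm. It had 0.844 and 0.845 CPM in E9.5 ectoderm (8 and 14 counts) and 1.67 and 0.430 CPM in E9.5 mesoderm (35 and 7 counts). Foxd1 at E12.5 was at most 0.096 of its E9.5 level in ectoderm and at most 0.0675 of it in mesoderm, taking 3 counts over a group as the floor (edgeR adjusted p = 0.0164 and 0.00674). Foxh1, a partner of Smad proteins in Nodal signalling, also faded: group means ran between 0.0330 CPM at E12.5 and 1.65 CPM at E9.5 in ectoderm and between 0.0888 CPM at E11.5 and 1.48 CPM at E9.5 in mesoderm. The Foxh1 ratio of E12.5 to E9.5 was 0.0156 in ectoderm (counting interval 0.000387 to 0.0917; edgeR adjusted p = 0.0306) and 0.0844 in mesoderm (0.0264 to 0.209; adjusted p = 0.0661, and 0.0128 with the replicate number as a block). Both ectodermal falls were lost without any 1 of the E9.5 or E12.5 ectoderm libraries (adjusted p up to 0.0976 for Foxd1 and 0.202 for Foxh1).

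Between E9.5 and E12.5, 3 forkhead genes rose in ectoderm (Foxj2, Foxp1, Foxq1) and 5 fell (Foxc1, Foxd1, Foxh1, Foxj1, Foxo4), against 9.1% and 7% of all genes tested, or 16.1% in both directions. In mesoderm 6 rose (Foxj1, Foxj2, Foxo1, Foxo3, Foxo4, Foxo6) and 2 fell (Foxd1, Foxd2), against 17% and 12.6% of all genes, or 29.6% in both directions. Foxd1, Foxd2 and Foxh1 passed the count filter through their E9.5 libraries, where they were high, so the filter favoured a fall in them. Later libraries held at most 2 counts of Foxd1 and 5 of Foxd2. Foxq1 and Foxo6 passed the filter through libraries later than E9.5, where they were high, so the filter favoured a rise in them. Each of the calls above, in either layer, had the same direction in both replicates, which are the libraries that gave the calls. With the replicate number as a block, 5 rose in ectoderm and 11 rose and 5 fell in mesoderm. Among all 15501 genes, that block raised the calls from 2495 to 5480 in ectoderm and from 4589 to 7987 in mesoderm. The number that fell in ectoderm was 1 without ectoderm E9.5 replicate 2 or either E12.5 replicate, and 2 without E9.5 replicate 1, and the number that fell in mesoderm was 1 without mesoderm E12.5 replicate 1.

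Markers of other cell types changed over the same interval. In mesoderm 13 of 13 macrophage genes rose (median log2 5.87), with summed levels of 198 and 81.7 CPM at E12.5 and of 3.73 and 3.44 CPM at E9.5. None of the 13 was at 0 in either E12.5 mesoderm library, and 1 and 4 of them were at 0 in the E9.5 ones. Of 6 tested genes of neural crest and glia, 4 rose in mesoderm and 0 fell, and the 7 on that list summed to 68.4 and 80.4 CPM at E12.5 and to 32.2 and 39.2 CPM at E9.5. All 5 tested genes of muscle precursors fell in mesoderm (8 on the list, summing to 5.10 and 4.51 CPM at E12.5 and to 113 and 57.6 CPM at E9.5). In ectoderm 0 of 13 macrophage genes changed, 1 of 6 neural crest and glia genes rose and 3 fell, and 5 of 5 muscle precursor genes and 8 of 11 erythroid genes fell. There the muscle precursor list summed to 25.3 and 31.0 CPM at E12.5 and to 180 and 184 CPM at E9.5. The neural crest and glia list summed to 213 and 220 CPM at E12.5 and to 138 and 118 CPM at E9.5. Both lists had higher sums in ectoderm than in mesoderm, so in ectoderm they need not mark those cells. The part of the listed cell types in the changes of forkhead genes, of FoxO targets and of Tle genes was not tested.

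The change differed between the layers for 4 genes, Foxc1, Foxj1, Foxo1 and Foxo4, each lower in ectoderm relative to mesoderm, against 5.15% of all genes in that direction, and for 0 genes in the other, against 3.12% (8.27% in both directions). At an unadjusted p under 0.05 the total was 7, and DESeq2 called 1 gene in the other direction. With embryo batch as blocking factor, 7 were lower and 2 higher, the added ones being Foxj2, Foxn3 and Foxo3 (adjusted p = 0.0269, 0.026 and 0.0138) and Foxp1 and Foxq1 in the other direction. The same block raised the calls among all 15501 genes from 1282 to 3873. The count of 4 was 2 without ectoderm E9.5 replicate 2, either ectoderm library of E12.5, mesoderm E9.5 replicate 1, mesoderm E12.5 replicate 1, or any 1 mesoderm library of E10.5 or E11.5. Without either mesoderm library of E11.5, 1 gene was called in the other direction.

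The FoxO genes accounted for 4 of the 6 mesodermal rises, and their mesoderm level was lowest at E9.5. In ectoderm Foxo4 had 168 and 176 CPM at E9.5, then 159.8 and 129.8 at E10.5, next 137 and 128 at E11.5 and last 102 and 108 at E12.5. In mesoderm Foxo4 had 48.3 and 54.0 CPM at E9.5, then 128 and 121 at E10.5, next 162 and 132 at E11.5 and last 84.5 and 123 at E12.5. The layers stood far apart at E9.5 and overlapped at E11.5 and E12.5.

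The log2 difference between the layers in Foxo4 was 1.75 at E9.5 (SE 0.19, edgeR adjusted p = 5.73e-05) and between −0.14 and 0.22 at the later stages, none of which passed. In ectoderm Foxo4 fell by 0.71 on the log2 scale (SE 0.19, adjusted p = 0.0237) and in mesoderm it rose by 1.02 (SE 0.19, adjusted p = 0.00211). The ectodermal change minus the mesodermal one was −1.73 (SE 0.26, adjusted p = 0.00255). The ectodermal fall was lost without any 1 of its 4 libraries (adjusted p up to 0.136).

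In ectoderm Foxo1 had 44.6 and 44.4 CPM at E9.5, then 55.5 and 49.8 at E10.5, next 35.7 and 47.9 at E11.5 and last 41.7 and 41.9 at E12.5. In mesoderm Foxo1 had 17.1 and 25.1 CPM at E9.5, then 35.3 and 37.3 at E10.5, next 31.2 and 33.2 at E11.5 and last 40.9 and 41.2 at E12.5. Ectoderm exceeded mesoderm in 8 of 8 embryo batches, by a margin that was widest at E9.5 and narrow at E12.5. The E9.5 difference was 1.08 in log2 (SE 0.20, edgeR adjusted p = 0.00207) and the mesodermal rise 0.96 (SE 0.19, adjusted p = 0.00367). The ectodermal change minus the mesodermal one was −1.05 (SE 0.27, adjusted p = 0.038), a call lost without 1 library in 13 of 16 cases (adjusted p up to 0.121, without mesoderm E9.5 replicate 1) and without a filter on low counts (0.0717).

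In ectoderm Foxo3 had 74.0 and 73.8 CPM at E9.5, then 100.2 and 86.3 at E10.5, next 97.05 and 89.8 at E11.5 and last 92.6 and 89.3 at E12.5. In mesoderm Foxo3 had 45.1 and 61.2 CPM at E9.5, then 72.0 and 60.0 at E10.5, next 99.5 and 69.3 at E11.5 and last 106 and 109.6 at E12.5. Ectoderm was above mesoderm at E9.5 and below it at E12.5, without overlap at either. The mesodermal rise passed (log2 1.02, SE 0.20, edgeR adjusted p = 0.00284) and the ectodermal change did not (0.30, SE 0.20, adjusted p = 0.378). The difference between those changes passed with embryo batch as blocking factor (log2 −0.74, adjusted p = 0.0138) and not without one (−0.72, SE 0.28, adjusted p = 0.156). Foxo6, a FoxO gene that stays largely in the nucleus, was scarce, with group means between 0.355 and 1.44 CPM in ectoderm and between 0.307 and 1.46 CPM in mesoderm. It too rose in mesoderm (log2 2.199, SE 0.65, edgeR adjusted p = 0.026). This call was lost without mesoderm E9.5 replicate 1 (log2 2.94), E9.5 replicate 2 (1.75) or E12.5 replicate 1 (1.70). In ectoderm the Foxo6 mean was 0.565 CPM at E9.5 and 1.44 CPM at E12.5. Neither that change nor the difference between the layers' changes passed.

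Genes known as FoxO targets leaned to ectoderm at E9.5 and less so later. Of 17 on the list, all tested, 4 were higher and 1 lower in ectoderm at E12.5 (13.3% and 13.2% of all genes; median log2 difference 0.05, against 0.04 over all genes tested), and 9 were higher and 3 lower at E9.5 (13.1% and 8.29% of all genes; median 1.0015, against −0.01). In mesoderm, where macrophage genes rose too, 9 of the 17 rose by E12.5 and 1 fell (17% and 12.6% of all genes, median 0.73, against 0.02). In ectoderm 4 rose and 1 fell (9.1% and 7% of all genes, median 0.13, against 0.003). The change in ectoderm minus that in mesoderm passed for 5 of the 17, each negative, against 5.15% of all genes in that direction. The 5 were Irs2, Pik3ip1, Fbxo32, Sesn3 and Sesn1. Without ectoderm E9.5 replicate 2, 5 were higher and 1 lower at E9.5, 1 rose in ectoderm, and 2 passed for the difference of changes, against 9 negative and 1 positive with embryo batch as blocking factor. Among all 15501 genes, 3873 passed for the difference of changes with that block, against 1282 without it. These 17 genes also answer to other factors.

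Pik3ip1, an inhibitor of PI3K, had 34.4 and 18.7 CPM in E9.5 ectoderm and 0.382 and 0.738 CPM in E9.5 mesoderm (log2 5.58, edgeR adjusted p = 7.88e-06). In mesoderm it rose to 8.80 and 8.72 CPM at E12.5 (log2 3.99 over E9.5, adjusted p = 0.000132). Bcl6, a repressor, had 1.1605 and 1.75 CPM in E9.5 ectoderm and 0.191 and 0.369 CPM in E9.5 mesoderm and was higher in ectoderm over the mean of the stages (log2 2.37, adjusted p = 1.41e-05). Txnip, which limits glucose uptake, was higher in ectoderm as well (log2 1.32, adjusted p = 2.34e-05). Klf2, which is strongly expressed in endothelium, went the other way, with at most 0.298 CPM in any ectoderm library and between 2.52 and 7.496 CPM in mesoderm libraries (log2 −4.94, adjusted p = 1.79e-06). The endothelial genes above moved in the same direction as Klf2, and their part in its level was not tested.

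In the PI3K and AKT pathway that controls FoxO proteins, a few genes differed widely between the layers. Of 12 tested, 2 were higher and 1 lower in ectoderm over the mean of the stages, against 24.3% and 21.4% of all genes (median log2 −0.08, against 0.01). With either block, by embryo batch or replicate number, 3 were higher and 5 lower, and the shares of all genes with these blocks are not given here. Pik3r1, a regulatory subunit of PI3K, was higher (log2 3.73, edgeR adjusted p = 7.35e-09), as was the catalytic subunit Pik3cb (1.78, adjusted p = 1e-06). Sgk1, an AKT-related kinase that also phosphorylates FoxO proteins, was lower (−3.01, adjusted p = 6.93e-07), and the kinase Akt1 had a difference of −0.36 that did not pass (adjusted p = 0.0742).

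Genes of the Tle family, which includes corepressors that FoxD and other repressors recruit, also leaned to ectoderm at E9.5. Whether corepressor activity differed was not tested. Of 6 tested, 0 were higher and 2 lower in ectoderm at E12.5 (13.3% and 13.2% of all genes; median log2 0.22, against 0.04), and 4 were higher and 0 lower at E9.5 (13.1% and 8.29% of all genes; median 1.88, against −0.01). In mesoderm 4 of the 6 rose by E12.5 and 0 fell (17% and 12.6% of all genes, median 1.32, against 0.02). The change in ectoderm minus that in mesoderm was negative and passed for 3 (Tle1, Tle6 and Aes), against 5.15% of all genes in that direction. Among all 15501 genes, 1282 passed for this difference in both directions, and 3873 with embryo batch as blocking factor. Tle6 had 16.8 and 15.5 CPM in E9.5 ectoderm and 2.48 and 2.15 CPM in E9.5 mesoderm (log2 2.79, edgeR adjusted p = 3.53e-05). Aes, a short family member, had 189 and 133 CPM in E9.5 ectoderm and 37.6 and 18.4 CPM in E9.5 mesoderm (log2 2.52, adjusted p = 0.00177). Tle2 and Tle4 were higher in ectoderm over the mean of the stages (log2 2.35 and 0.65, adjusted p = 0.00257 and 0.000296), and Tle1 and Tle3 were lower (−0.36 and −0.63, adjusted p = 0.0114 and 0.000925). The difference of changes passed for 6 of 6 with embryo batch as blocking factor and for 1 without ectoderm E9.5 replicate 2.

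**Figure D5:**
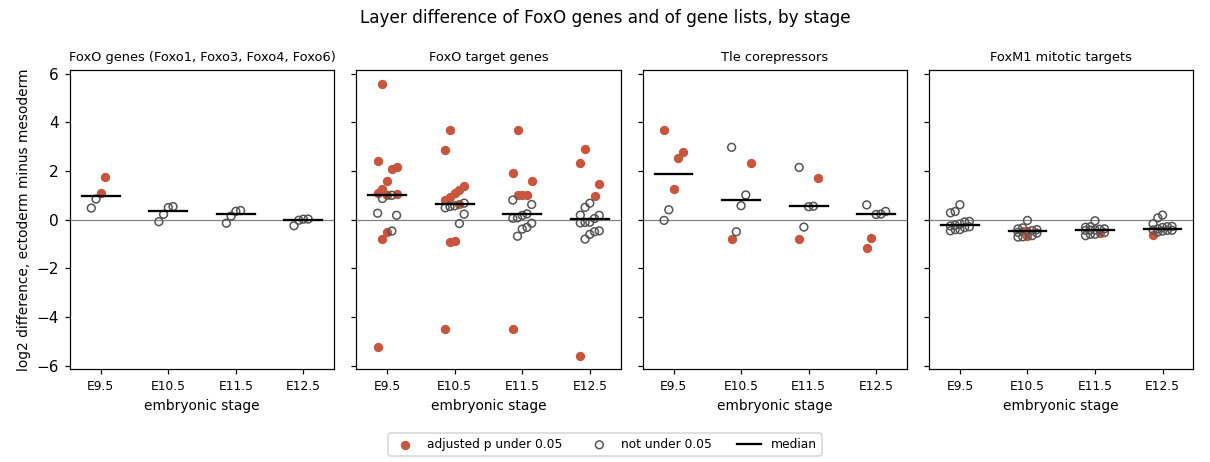
Fitted log2 difference, ectoderm minus mesoderm, by stage for the 4 tested FoxO genes, 17 FoxO target genes, 6 Tle family genes and 13 FoxM1 mitotic targets. Each point is a gene, filled where the adjusted p is under 0.05, and black lines are medians. The medians of the first 3 panels are nearest to 0 at E12.5 (0.05 for the FoxO targets and 0.22 for Tle) and highest at E9.5 (1.0015 and 1.88), and those of the FoxM1 targets lie below 0 at every stage.

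Foxm1, the mitotic regulator, was abundant in both layers and somewhat lower in ectoderm. In ectoderm its group means ran between 125 CPM at E12.5 and 153 CPM at E10.5, and in mesoderm between 167 CPM at E12.5 and 216 CPM at E10.5. Ectoderm was below mesoderm in 8 of 8 embryo batches (mean log2 −0.41, SE 0.08, edgeR adjusted p = 0.00105). At E12.5 the difference did not pass in the main design. It passed with DESeq2 (adjusted p = 0.0177) and in edgeR with the replicate number (0.0179) or the embryo batch (0.00751) as a block. The single-stage calls at E10.5 and E11.5 were lost without a filter on low counts (adjusted p = 0.0887 and 0.136) and without 1 library in 4 and 9 of 16 cases (up to 0.161, without ectoderm E10.5 replicate 2, and 0.286, without ectoderm E11.5 replicate 2).

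Genes that FoxM1 activates had small differences in the same direction, and the part of Foxm1 in these differences was not tested. Of 13 tested, 11 were lower in ectoderm over the mean of the stages and 0 higher, against 21.4% and 24.3% of all genes (median log2 −0.35, against 0.01). Aurka, Bub1, Plk1 and Birc5, which act in the spindle and its checkpoint, had the widest differences (log2 −0.56, −0.53, −0.48 and −0.47, edgeR adjusted p = 0.00426, 0.0255, 0.0188 and 0.00166). At single stages between 0 and 3 of the 13 were lower, against 7.69% to 13.2% of all genes. With embryo batch as blocking factor 5 were lower and 3 higher at E9.5, and between 10 and 12 were lower at the later stages. Among all 15501 genes, that block called 6573, 7531, 6197 and 7080 in both directions from E9.5 to E12.5. By E12.5, 2 of the 13 had fallen in ectoderm, against 7% of all genes. In mesoderm 2 had fallen and 1 risen, against 12.6% and 17% of all genes. With the replicate number as a block, 10 had fallen and 1 risen in ectoderm and 9 and 2 in mesoderm. That block called 5480 of all 15501 genes in ectoderm and 7987 in mesoderm.

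Foxk1 and Foxk2, which repress autophagy genes, leaned to opposite layers by small margins. Foxk1 had ectodermal group means of 91.2 to 135 CPM and mesodermal ones of 78.2 to 106 CPM, and ectoderm was the higher in 8 of 8 batches (mean log2 0.26, SE 0.09, edgeR adjusted p = 0.0396). Foxk2 had ectodermal group means of 135 to 158 CPM and mesodermal ones of 168 to 206 CPM, and ectoderm was the lower in 8 of 8 batches (mean log2 −0.35, SE 0.08, adjusted p = 0.00311). The Foxk1 call was lost with another scaling (relative log expression, adjusted p = 0.0602), without a filter on low counts (0.267) and without 1 library in 9 of 16 cases (up to 0.16, without ectoderm E11.5 replicate 1). The Foxk2 call at E10.5 was lost without a filter (0.123) and without 1 library in 14 of 16 cases (up to 0.265, without ectoderm E10.5 replicate 2). With embryo batch as blocking factor, Foxk2 was also lower in ectoderm at E9.5 (log2 −0.32, adjusted p = 0.0439), E11.5 (−0.33, 0.0417) and E12.5 (−0.32, 0.0416).

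Foxn2 and Foxn3, class N relatives of Foxn1 of which Foxn3 is known as a checkpoint suppressor, also leaned to opposite layers. Foxn3 had ectodermal group means of 120.0 to 145 CPM and mesodermal ones of 67.8 to 114 CPM (mean log2 0.66, SE 0.15, edgeR adjusted p = 0.00389). Foxn2 had ectodermal group means of 14.8 to 18.7 CPM and mesodermal ones of 25.5 to 44.4 CPM (mean log2 −0.88, SE 0.23, adjusted p = 0.00828). Ectoderm was above mesoderm in 8 of 8 batches for Foxn3 and below it in 8 of 8 for Foxn2. With embryo batch as blocking factor, Foxn2 was lower in ectoderm at each of the 4 stages (edgeR adjusted p = 0.000599, 0.00147, 0.0467 and 0.0242 from E9.5 to E12.5), of which none passed in the main design. With that block Foxn3 was also higher in ectoderm at E9.5 (log2 0.85, adjusted p = 0.000374) and E11.5 (0.62, 0.00246). With the replicate number as a block Foxn3 rose in mesoderm (log2 0.76, adjusted p = 0.000421). The Foxn3 call at E10.5 (adjusted p = 0.0433) was lost without 1 library in 8 of 16 cases (up to 0.278, without mesoderm E10.5 replicate 1).

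Foxj2 and Foxj3, relatives of Foxj1, were present in both layers. In ectoderm Foxj2 had 9.07 and 11.4 CPM at E9.5, then 14.01 and 14.95 at E10.5, next 19.3 and 15.8 at E11.5 and last 19.0 and 21.6 at E12.5. In mesoderm Foxj2 had 7.88 and 11.7 CPM at E9.5, then 14.1 and 17.9 at E10.5, next 25.2 and 20.3 at E11.5 and last 33.0 and 30.6 at E12.5. Group means rose stage by stage in both layers, and the layers separated at E11.5 and E12.5, with ectoderm the lower. The E12.5 difference missed the threshold (log2 −0.65, SE 0.23, edgeR adjusted p = 0.0592) and passed it with relative log expression scaling (0.0482), DESeq2 (0.0186), the replicate number as a block (0.017) and the embryo batch as one (0.00261). That over the mean of the stages (log2 −0.27, adjusted p = 0.0764) passed in the same 4 settings (adjusted p = 0.0486, 0.0317, 0.0345 and 0.00632). Foxj2 rose in ectoderm (log2 0.98, SE 0.24, edgeR adjusted p = 0.0157) and in mesoderm (1.70, SE 0.24, adjusted p = 0.000417), and the difference between these rises passed with embryo batch as blocking factor (−0.72, adjusted p = 0.0269) and not without (adjusted p = 0.249).

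The ectodermal rise of Foxj2 was lost without ectoderm E9.5 replicate 1 (adjusted p = 0.131), E9.5 replicate 2 (0.0505) or E12.5 replicate 2. Foxj2 overlaps Gm26826 on the opposite strand, which had 41 counts in all libraries together. Foxj3 had ectodermal group means of 57.3 to 76.0 CPM and mesodermal ones of 55.9 to 69.6 CPM and was the 1 tested gene of the 24 called in none of the 8 comparisons (mean log2 difference 0.06, SE 0.12). With the replicate number as a block it rose in ectoderm (adjusted p = 0.0214) and in mesoderm (0.0418).

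Exon use within forkhead genes was not detectably different between the layers. Of the 44 genes, 16 had 2 or more exon bins with enough counts, 164 bins in all, and 0 of the 16 were called by edgeR's exon bin test, against 1.66% of 12501 genes. At an unadjusted p under 0.05 the count was also 0, and the lowest unadjusted p was 0.0865, for Foxj1 with 2 bins. Foxp1 had 29 bins and Foxp4 25, the most of the family, with unadjusted p of 0.922 and 0.975.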

How the data were processed

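Whole-number counts per gene and per exon bin, as deposited by the authors, and the authors' FPKM (fragments per kilobase of transcript, scaled to depth) were used for 16 libraries of mm10-aligned RNA. The submitters' processing notes name STAR 2.6.0c, bedtools 2.27.1, Cufflinks 2.2.1 and cutadapt 1.16; the gene counter and its use of strand are not given in the sources used here. Counts were tested with edgeR 4.0.16 (R 4.3.3) by its quasi-likelihood test, with 8 group means, TMM scaling, filterByExpr and Benjamini-Hochberg adjustment over all 15501 genes tested, called under 0.05. CPM used the effective library sizes, and FPKM was used only to set genes side by side. Exon bins with 10 counts or more were tested with edgeR's diffSpliceDGE. The scripts were tested on simulated data.

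Intervals (95%) and floors (3 counts over a group) cover counting error only. Replicates differed by more than sampling noise (chi-square per degree of freedom 24.5 to 69.6), and their number, 2 a group, limits the precision. Labels tie ectoderm and mesoderm of 1 stage and number to 1 embryo batch; deviations from group means correlated across genes at 0.546 to 0.666 within batches and 0.432 to 0.58 between stages. Across stages a replicate number marks the RNA kit alone.

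Alternatives were relative log expression scaling, no low-count filter, DESeq2 1.42.0, blocks for replicate number or embryo batch, and leaving out each library. Genes with a group mean of 10 CPM or more and a called log2 change of 1 or more are given in every library; other genes over 1 CPM by group means, except Foxi3, Foxn1, Foxq1, Foxc1, Foxc2 and Foxd2, added after their values were seen. From partner lists up to 4 genes with the widest layer difference are named, and others (such as Irs2, Tle1, Tle3, Akt1) were chosen after their values were seen. One gene among those with too few counts to test is not reported here. Members and lists were chosen with earlier results of these data known.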

Additional observations from a re-analysis of the deposited data

Results flagged for a closer look

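In 4 forkhead genes the change between E9.5 and E12.5 differed between the layers by a test of the difference itself (edgeR, adjusted p under 0.05). As log2 change in ectoderm minus that in mesoderm, it was −8.60 for Foxj1, −1.73 for Foxo4, −1.05 for Foxo1 and −2.76 for Foxc1. Foxj1 and Foxo4 fell in ectoderm and rose in mesoderm, Foxo1 rose in mesoderm, and Foxc1 fell in ectoderm. The calls for Foxj1 and Foxo4 were kept without any 1 library, while that for Foxo1 was lost in 13 of 16 cases (adjusted p up to 0.121, without mesoderm E9.5 replicate 1) and that for Foxc1 in 10 of 16 (up to 0.197, without ectoderm E9.5 replicate 2). Beside the fall of Foxc1, limb mesenchyme genes in ectoderm stood at 4.46% and 5.19% of mesoderm at E12.5, against 17.1% and 17.9% at E9.5, and their part in it was not tested.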

How the results depend on the processing

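Of 75 results in which a forkhead gene was called, 75 kept their direction and call with DESeq2, 74 with relative log expression scaling and 70 without a low-count filter. With the replicate number as a block 75 of 75 did, and for blocking by embryo batch 59 of 59, since that block gives no change between stages within a layer; no call was lost under either block. Leaving out 1 library kept 1050 of 1200 calls, 42 of the 75 results were called in every such case, and 0 were reversed. The replicate-number and embryo-batch blocks raised the genes called to 6220 and 6573 at E9.5 (3320 without a block), then 7205 and 7531 at E10.5 (4093), next 5839 and 6197 at E11.5 (3196), 6750 and 7080 at E12.5 (4099), and 3588 and 3873 for the difference of changes (1282; 1967 with DESeq2); the replicate-number block gave 5480 for the ectodermal change (2495) and 7987 for the mesodermal one (4589). Forkhead genes lower in ectoderm were 6 at E11.5 with the embryo-batch block (3 without), and at E12.5, against 1, were 2 with relative log expression, 2 without a filter, 4 with DESeq2, and 6 and 7 with the blocks. With the replicate-number block 5 forkhead genes rose in ectoderm (3 without), and 11 rose (6) and 5 fell (2) in mesoderm. Genes with a more positive change in ectoderm were 1 without a filter, 1 with DESeq2, and 2 with each block (0 in the main design), and those with a more negative one 7 with the embryo-batch block (4). Leaving out 1 library gave 2084 to 3445 genes called at E9.5, 2692 to 4187 at E10.5, 1803 to 3159 at E11.5, 1110 to 2519 for the ectodermal change, 2773 to 4622 for the mesodermal change and 649 to 1300 for the difference. Forkhead genes were then 0 to 5 lower at E9.5, 5 to 9 higher and 1 to 4 lower at E10.5, 3 to 5 higher and 1 to 3 lower at E11.5, 1 to 3 lower at E12.5, 1 to 6 falling in ectoderm, 1 to 3 falling in mesoderm, and 0 to 1 higher and 2 to 4 lower for the difference. The causes of these moves were not tested. Where an arm kept 1 library, it was assumed to vary like the other groups. Forkhead genes below 1 CPM in every group were not tested, and their few counts limit precision.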
